A study of Mus musculus with 3 samples.

Results

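Intermediate filaments are the rope-like part of the cytoskeleton, and the 8 genes described here encode 4 keratins of simple epithelia (Krt7, Krt8, Krt18 and Krt19) and 4 filament proteins of muscle, mesenchyme and progenitor cells (Des, Vim, Nes and Synm). The genes were chosen by name, with their earlier results in these libraries known, and all 8 were found among the 23337 gene symbols counted. RNA of mouse heart tubes labelled E9.5 was sequenced in bulk in 2 Sox7-null libraries, labelled homozygous for the null allele, and in 1 wild-type library. The labels give neither group a further treatment. The sources used here do not state the strain, whether a library pooled tubes, or how the null allele was made; E9.5 stands under a tag for culture time. The comparison addresses which transcripts differ in the early heart when SOX7, a transcription factor of endothelium, is missing.

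Keratins polymerise only as pairs of a type I and a type II protein, so a cell with keratin 8 (type II) needs keratin 18 or 19 (type I) to build filaments. Keratins 8 and 18 are the first keratins of the mouse embryo and, with keratins 7 and 19, mark simple epithelia and the mesothelium. Desmin (Des) ties the Z-discs of heart muscle together, vimentin (Vim) is the main filament protein of endothelium and mesenchyme, and nestin (Nes) and synemin (Synm) are large proteins that build into vimentin or desmin filaments. Keratin 19 and keratin 8 are also known at the costameres of striated muscle, where keratin 19 binds dystrophin.

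Gene-assigned reads numbered 13139823 and 13618338 in Sox7-null 1 and Sox7-null 2, against 13789388 in the wild type. Reads that did not align uniquely made up 10.4% and 11.6% of the Sox7-null files and 22.3% of the wild-type file, so the wild-type library stood apart in this respect, and its part in the results below was not tested. Sox7 was counted 2 and 7 times in the Sox7-null libraries and 222 times in the wild type (log2 fold change -5.63 ± 0.47, SE; edgeR adjusted p = 3.81e-05). The summed myocardial markers reached 32142 and 31134 CPM (reads scaled to library size, with TMM factors) in the Sox7-null libraries and 24956 CPM in the wild type. Retinal markers, examined because the protocol text names retinal cultures, totalled 6 and 3 reads against 2. The labels do not say whether tubes came from separate embryos, so the spread between the 2 Sox7-null libraries may be technical, and the wild type had no replicate.

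Krt19 showed the widest difference of the 8 genes. It had 10671 and 9216 reads in Sox7-null 1 and Sox7-null 2, which is 791 and 668 CPM, and 1074 reads or 80.9 CPM in the wild type. Both Sox7-null libraries lay far above the wild type, 9.77-fold and 8.26-fold, and they differed from each other by 18.4%. The edgeR fit gave a log2 fold change of 3.17 ± 0.20 (SE). By log2 fold change it ranked 95 among the 13334 genes tested. Among the 1861 tested genes with a mean of at least 100 CPM over the 3 libraries, 1 had a larger log2 fold change, Egln3 at 3.52. Egln3 was named after its value was seen. Krt19 reached that mean only through the Sox7-null libraries, since its wild-type level was 80.9 CPM. In bulk RNA a change in the number of cells that make a transcript and a change in the amount per cell cannot be told apart.

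Krt8 and Krt18, whose products pair with each other, were higher by similar factors. Krt8 was counted at 343 and 347 CPM in the Sox7-null libraries and at 123 CPM in the wild type. Krt18 was counted at 184 and 182 CPM in the Sox7-null libraries and at 71.2 CPM in the wild type. In both genes the Sox7-null libraries nearly coincided and the wild type lay well below them. The log2 fold changes were 1.49 ± 0.18 for Krt8 and 1.36 ± 0.19 for Krt18 (SE, edgeR). The ratio of Krt8 reads to Krt18 reads within a library was 1.86 in Sox7-null 1 (exact 95% interval 1.78 to 1.96) and 1.91 in Sox7-null 2 (1.82 to 2.0), against 1.72 in the wild type (1.59 to 1.87). The intervals, which cover counting error only, overlapped between all 3 libraries.

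Krt7, a type II keratin of ducts and mesothelium, was scarce and had no common direction. It had 64 reads in Sox7-null 1 and 29 in Sox7-null 2, against 40 in the wild type, so the wild type lay between the Sox7-null libraries. The log2 fold change was 0.18 ± 0.52 (SE, edgeR). At this depth a difference smaller than the spread between the Sox7-null libraries was not detectable for Krt7.

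**Figure D1:**
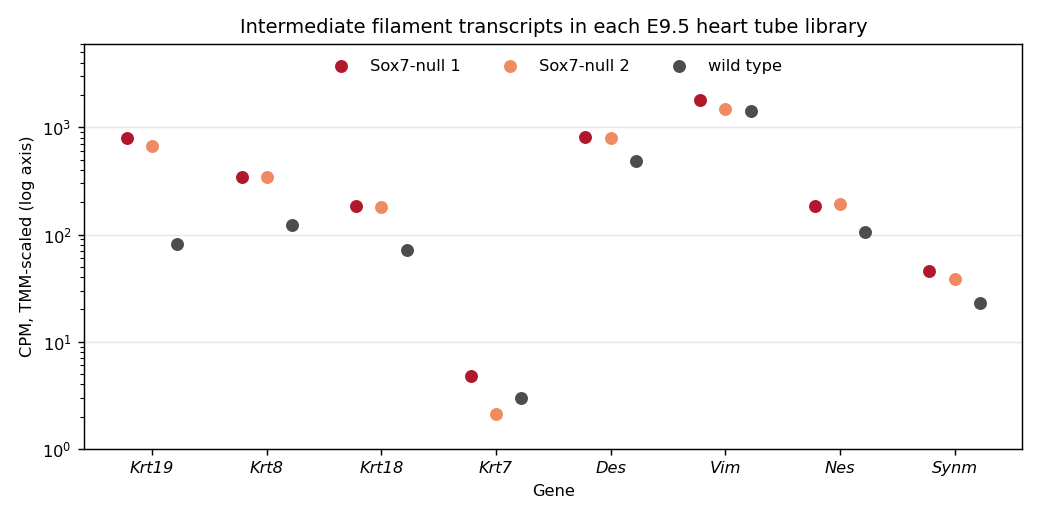
Level of each gene in CPM, TMM-scaled, on a log axis, with 1 point per library in the order Sox7-null 1, Sox7-null 2, wild type. The Sox7-null points for Krt19 sit at 791 and 668 CPM above a wild-type point at 80.9 CPM, while the wild-type point for Krt7 (3.01 CPM) lies between its Sox7-null points (4.74 and 2.10 CPM).

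Krt8 and Krt18 are direct neighbours on mouse chromosome 15, on opposite strands, and Krt18 is the type I gene at the edge of the type II cluster. Krt19 lies in the type I cluster on chromosome 11 between Krt15 and Krt9. Krt15 was counted 1 and 1 times in the Sox7-null libraries and 0 times in the wild type, and Krt9 had 0 reads in all 3 libraries, so both neighbours were at or near 0. The promoters of Krt8 and Krt18 are shown because these neighbours moved by similar factors, and that of Vim because it is the most abundant of the 8 genes and was not past the threshold. Each runs from 250 bases before to 50 bases after the gene's start, 5′ to 3′ on the gene's strand, from RefSeq on GRCm38.p6: Krt8 at chr15:102004293-102004592 (minus strand), Krt18 at chr15:102027966-102028265 (plus strand) and Vim at chr2:13574061-13574360 (plus strand). Capitals mark matches to 5 searched motifs.
Krt8: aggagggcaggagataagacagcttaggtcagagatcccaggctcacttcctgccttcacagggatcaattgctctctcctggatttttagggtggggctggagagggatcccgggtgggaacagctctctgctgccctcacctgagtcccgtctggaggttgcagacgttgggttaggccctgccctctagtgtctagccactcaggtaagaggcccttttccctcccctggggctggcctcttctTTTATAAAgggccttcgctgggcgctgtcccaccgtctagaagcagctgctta
Krt18: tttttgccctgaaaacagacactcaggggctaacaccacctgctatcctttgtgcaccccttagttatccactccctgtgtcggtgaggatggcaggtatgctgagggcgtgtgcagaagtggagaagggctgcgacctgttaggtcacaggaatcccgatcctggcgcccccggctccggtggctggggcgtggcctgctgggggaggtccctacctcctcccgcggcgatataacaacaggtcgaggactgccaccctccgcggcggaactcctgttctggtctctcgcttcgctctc
Vim: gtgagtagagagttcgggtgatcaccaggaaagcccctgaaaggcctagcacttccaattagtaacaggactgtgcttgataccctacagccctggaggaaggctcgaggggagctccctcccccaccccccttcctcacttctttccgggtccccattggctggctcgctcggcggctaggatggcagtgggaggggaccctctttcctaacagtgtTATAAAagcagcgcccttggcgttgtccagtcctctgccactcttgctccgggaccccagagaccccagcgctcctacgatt

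The motifs were the TATA box TATAAA, the GC box GGGCGG, the AP-1 site TGANTCA, the SOX core AACAAT and the hypoxia response core ACGTG, searched on both strands. Krt8 and Vim each held a match to the TATA box letters, found in 13.6% of 32851 promoters of this length. Whether a match works as a promoter element was not tested. In Krt8 it began 1 base before the annotated start and overlapped a match on the other strand, and in Vim it began 32 bases before the start. The Krt18 window held none of the 5 motifs. No window of the 7 members in the table held the SOX core, which 10.7% of all promoters held, or the AP-1 site, which 7.81% held. Krt7, Des and Nes held GC boxes, found in 35.7% of promoters, and Synm held the hypoxia response core, found in 19.6%. Krt19 has no entry in the table.

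The make-up of the keratin transcripts differed between the groups as well as their amount. The 4 keratins together took 0.136% and 0.121% of gene-assigned reads in Sox7-null 1 and Sox7-null 2, against 0.0267% in the wild type. Krt19 made up 59.8% of these keratin reads in Sox7-null 1 (exact 95% interval 59.1 to 60.6) and 55.7% in Sox7-null 2 (55.0 to 56.5), against 29.1% in the wild type (27.7 to 30.6). Krt8 was the most counted of the 4 in the wild type, with 44.2% of the keratin reads, whereas it held 25.9% and 28.9% in the Sox7-null libraries. Krt7 stayed near 1% or below, with 0.359% and 0.175% in the Sox7-null libraries and 1.08% in the wild type.

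Set per length of transcript, type I keratins outweighed type II keratins in every library. The level in RPKM (CPM per kilobase of the longest coding transcript in GENCODE M21) of Krt18 plus Krt19 was 3.58 and 3.10 times that of Krt7 plus Krt8 in the Sox7-null libraries, against 1.59 times in the wild type. The Krt19 level was 2.87 and 2.39 times the Krt8 level in the Sox7-null libraries and 0.82 times in the wild type, while the Krt18 level was 0.731 and 0.714 times the Krt8 level in the Sox7-null libraries and 0.791 times in the wild type.

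**Figure D2:**
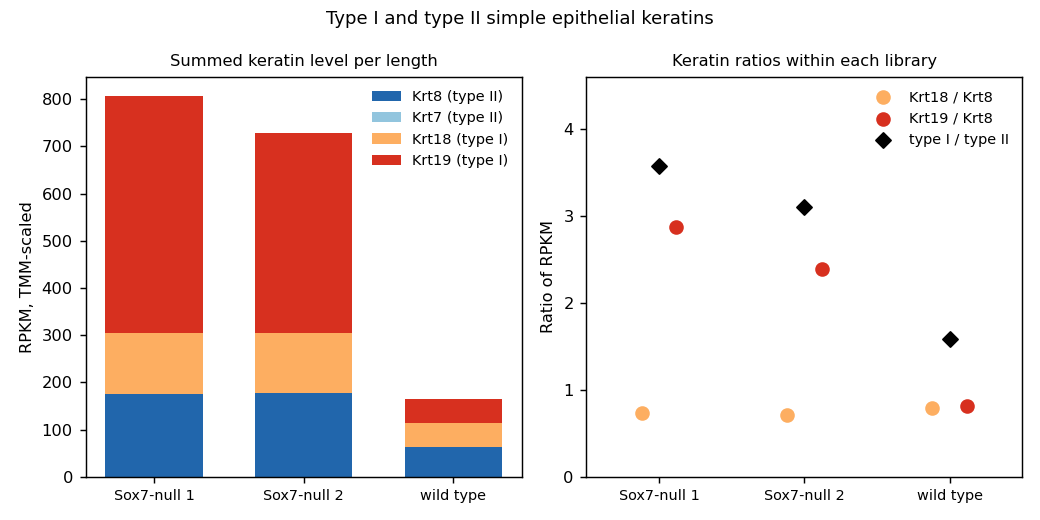
Left, stacked bars of keratin level in RPKM for each library, where type I keratins sum to 629.8 and 551 RPKM in the Sox7-null libraries and 101 RPKM in the wild type (Krt7 is too low to see); right, ratios of RPKM within each library. The Krt18 to Krt8 ratio is nearly level across libraries, and the Krt19 to Krt8 ratio is above 2 in both Sox7-null libraries and below 1 in the wild type.

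The muscle and progenitor filament genes differed less than the 3 keratins. Des was counted at 809 and 792 CPM in Sox7-null 1 and Sox7-null 2 and at 489.5 CPM in the wild type, so both Sox7-null libraries lay above it. Its log2 fold change was 0.71 ± 0.15 (SE, edgeR), beside 0.88 ± 0.14 for the myocardial troponin gene Tnnt2. The level of Des in CPM was 44.6% and 43.6% of that of Tnnt2 in the Sox7-null libraries and 49.5% in the wild type. Tnnt2 is 1 of 10 myocardial markers, whose log2 fold changes ran from -0.31 to 2.2 with a median of 0.46 (edgeR), so another marker would give another ratio. Des overlaps an antisense gene, Gm15179, and Synm overlaps Ttc23 on the opposite strand. The strand setting of the counting is not given, but the counted reads of Gm15179 (5 and 5 in the Sox7-null libraries, 11 in the wild type) were few beside those of Des. For Synm, Ttc23 had 265 and 204 reads in the Sox7-null libraries and 184 in the wild type, so its value is less certain.

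Vim was the most abundant member, with 24407 and 20462 reads in the Sox7-null libraries and 18752 in the wild type. Sox7-null 2, at 1484 CPM, stood near the wild type at 1413 CPM, and Sox7-null 1 was higher at 1809.5 CPM. The log2 fold change of Vim was 0.22 ± 0.15 (SE, edgeR), with 0.36 and 0.07 for the single Sox7-null libraries. Des reads were 0.447 and 0.534 times Vim reads in the Sox7-null libraries, against 0.346 times in the wild type.

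Nes, which marks proliferating progenitors and young endothelium, had 2491 and 2660 reads in the Sox7-null libraries and 1403 in the wild type. Synm, which links filaments to the costamere, had 611 and 526 reads in the Sox7-null libraries and 304 in the wild type. For both genes the Sox7-null libraries lay above the wild type. In CPM, Sox7-null 1 differed from Sox7-null 2 by -4.27% for Nes and by 18.7% for Synm. The log2 fold changes were 0.84 ± 0.18 for Nes and 0.86 ± 0.23 for Synm (SE, edgeR).

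Read per length, the order of the 8 genes was the same in both Sox7-null libraries: Vim, Krt19, Des, Krt8, Krt18, Nes, Synm and Krt7. Vim stood at 825 and 677 RPKM, Krt19 at 502 and 424 RPKM and Des at 267 and 262 RPKM in Sox7-null 1 and Sox7-null 2, and no neighbours in this order overlapped between the 2 libraries. The wild type kept Vim first, at 644 RPKM, and Des came next at 162 RPKM. Krt8 (62.7 RPKM), Krt19 (51.4 RPKM) and Krt18 (49.6 RPKM) stood close together there, and with 1 library their order has no replicate check. Krt19 made up 26.0% and 24.9% of the summed RPKM of the 8 genes in the Sox7-null libraries, against 5.18% in the wild type.

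Counted by edgeR's quasi-likelihood test over all genes, 6 of the 8 members (Krt19, Krt8, Krt18, Des, Nes and Synm) were past an adjusted p of 0.05 and higher, and 0 were lower. Of 13334 genes tested, 21.6% were called in either direction, 11.3% higher and 10.2% lower. In 7 of the 8, all but Krt7, both Sox7-null libraries lay above the wild type, which was so for 43.1% of genes tested; in 0 of the 8 did both lie below it, against 43% of genes tested. Of the 8, 3 (the keratins Krt19, Krt8 and Krt18) had a log2 fold change of at least 1, as did 10.3% of genes tested. DESeq2 called the same 6 higher and 0 lower, against 8.17% and 6.26% of the 11524 genes to which it gave an adjusted p, and edgeR with a minimum mean of 5 CPM called 6 of 7 higher, against 11.8% of genes. The median log2 fold change was 0.85 over the members and 0.01 over all genes tested. Because the members were chosen with this contrast known, these counts describe them and support nothing further. After correction for transcript length and GC content (the length-GC correction), 3 members were called higher, against 8.01% of genes, and 0 lower, against 8.08%. They were Krt19, Krt8 and Krt18, with log2 fold changes of 3.18, 1.41 and 1.44. Des, Nes and Synm, with longest coding transcripts of 3.03, 6.13 and 7.82 kilobases, then stood at 0.44, 0.33 and 0.42 and were not past the threshold.

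**Figure D3:**
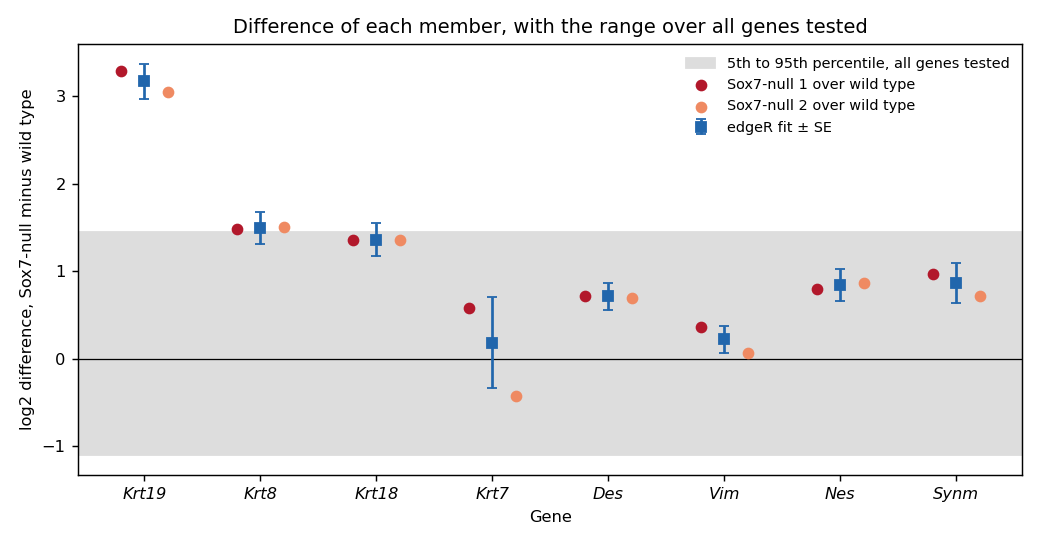
Difference of each gene on the log2 scale, Sox7-null minus wild type, as the edgeR fit with its SE (squares) and for each Sox7-null library alone (circles, log2(CPM + 0.5)). The grey band holds the 5th to 95th percentile of all genes tested (-1.10 to 1.45); Krt19 lies far above it, Krt8 at 1.49 lies just above it and the other 6 genes lie within it.

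The rest of the keratin family was nearly silent. Of 47 other keratin symbols, 28 had 0 reads in all libraries, among them the epidermal keratin Krt14 and the hair keratins Krt31 to Krt35 apart from Krt33b, which had 1 read. The epidermal keratin Krt5 had 0 and 0 reads in the Sox7-null libraries and 3 in the wild type. Of the 47, 4 had enough reads to be tested, and 1 rose and 0 fell by edgeR (0 and 0 by DESeq2; 2 were lower at an unadjusted edgeR p under 0.05). The gene that rose was Krt20, a type I keratin of gut and bladder lining, with 136 and 146 reads in the Sox7-null libraries and 55 in the wild type (log2 fold change 1.32 ± 0.33, edgeR adjusted p = 0.0146, but DESeq2 adjusted p = 0.0826). Krt79 had 4 and 2 reads in the Sox7-null libraries against 18 (log2 fold change -2.57 ± 0.91, edgeR adjusted p = 0.0611), and Krt10 and Krt222 did not pass. The median over the 4 was -1.05. Counts of this list and of the partner lists below stand beside 11.3% of all genes tested called higher and 10.2% called lower by edgeR.

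Among 14 other intermediate filament genes, 10 were tested, 1 rose and 0 fell by edgeR (0 and 0 by DESeq2; 3 higher and 0 lower at an unadjusted edgeR p under 0.05), with a median log2 fold change of 0.49. The riser was Iffo2, a little-studied family member, at 0.67 ± 0.22 (edgeR adjusted p = 0.0462), and it passed neither with DESeq2 (adjusted p = 0.169) nor under the length-GC correction (edgeR adjusted p = 0.565), where the median was 0.19. The lamins, which line the nuclear envelope, did not pass: Lmna stood at 0.53 ± 0.24, Lmnb1 at 0.15 ± 0.18 and Lmnb2 at -0.11 ± 0.22 (SE, edgeR). The neurofilament gene Nefh had 40 and 20 reads in the Sox7-null libraries and 6 in the wild type (edgeR adjusted p = 0.0553). Gfap, the astrocyte filament gene, had 0 reads in the Sox7-null libraries and 4 in the wild type.

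Genes of the desmosome, the junction that anchors desmin and keratin filaments at the cell border, were mostly higher. Of 10, 7 were tested, 4 rose and 1 fell, with a median log2 fold change of 0.70. Plakoglobin (Jup) rose by 0.93 ± 0.20 (edgeR adjusted p = 0.00647), with 1874 and 1677 reads in the Sox7-null libraries and 907 in the wild type. Desmoplakin (Dsp), which binds the filaments, rose by 0.76 ± 0.17 (edgeR adjusted p = 0.00847) and plakophilin 2 (Pkp2) by 0.78 ± 0.19 (edgeR adjusted p = 0.0137). The desmosomal cadherin Dsg2 rose by 0.70 ± 0.22 (edgeR adjusted p = 0.0438, DESeq2 adjusted p = 0.105). Perp, a desmosomal membrane protein of stratified epithelium, fell, at -0.83 ± 0.20 (edgeR adjusted p = 0.0115). Under the length-GC correction 2 rose (Jup and Pkp2) and Perp fell, and the median was 0.27. The epidermal plakophilin gene Pkp1 had 0 reads in the Sox7-null libraries and 2 in the wild type.

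Plakins, giant proteins that tie filaments to junctions and to other parts of the cytoskeleton, had 4 of 6 members tested, of which 2 rose and 0 fell by edgeR, also 0 at an unadjusted p under 0.05 (median 0.75). Dst rose by 0.95 ± 0.25 (edgeR adjusted p = 0.0167) and plectin (Plec) by 0.84 ± 0.25 (edgeR adjusted p = 0.0335, DESeq2 adjusted p = 0.072). Neither passed under the length-GC correction, where the median was 0.07. All 15 costamere and dystrophin complex genes were tested, and 5 rose and 0 fell by edgeR (1 lower at an unadjusted p under 0.05), with a median of 0.51. Dystroglycan (Dag1), the membrane anchor of the complex, rose by 1.53 ± 0.22 (edgeR adjusted p = 0.000872), with 2805 and 2190 reads in the Sox7-null libraries and 841 in the wild type. Talin 1 (Tln1), which couples integrins to actin, rose by 1.20 ± 0.21 (edgeR adjusted p = 0.00232), and the others that rose were Sntb1, Utrn and Sgcd. Dystrophin itself (Dmd), to which keratin 19 binds, stood at 0.51 ± 0.31 (edgeR adjusted p = 0.257). DESeq2 called 2 of them (Dag1 and Tln1). The length-GC correction gave 5 risers, with Sgce in place of Utrn.

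None of the chaperones that attend filament assembly passed the test. Of 6 tested, 0 rose and 0 fell by edgeR and by DESeq2, with 0 higher and 1 lower at an unadjusted edgeR p under 0.05 and a median of -0.05, which was 0.03 under the length-GC correction. The desmin chaperone Cryab had 6152 and 6050 reads in the Sox7-null libraries and 6024 in the wild type (log2 fold change -0.02 ± 0.16, SE, edgeR).

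**Figure D4:**
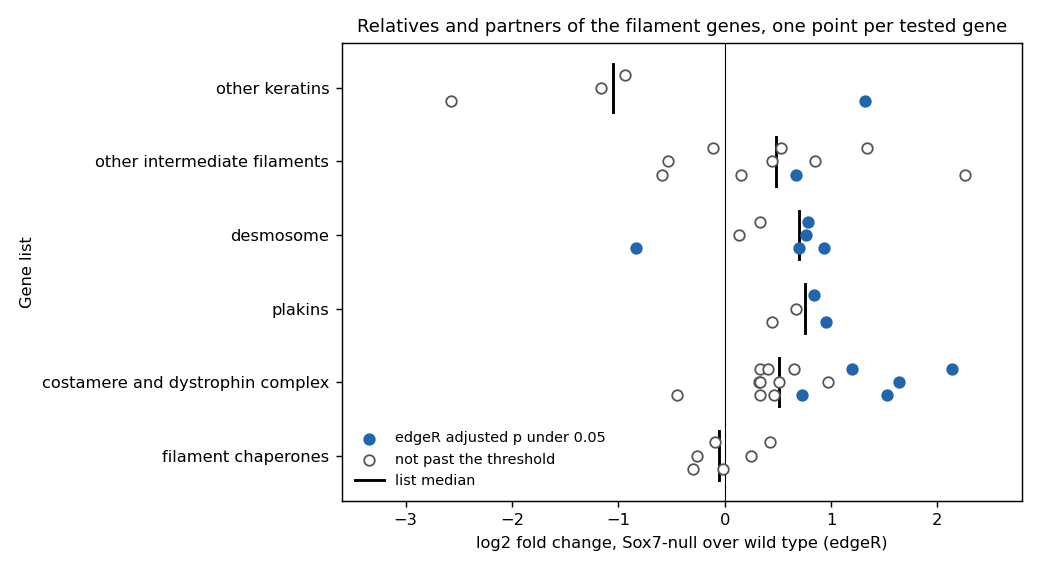
Log2 fold change (Sox7-null over wild type, edgeR) of each tested gene in 6 lists, filled where the adjusted p is under 0.05, with a bar at each list's median. Filled points lie to the right of 0 apart from Perp, and the chaperone list has none.

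Markers of the cell types that carry these filaments moved in different ways. Their counts, here and in the next paragraph, stand beside 11.3% of all genes tested called higher and 10.2% called lower by edgeR. Of the 10 epicardial and mesothelial markers, whose cells are rich in keratins 8, 18 and 19, 9 were tested, 1 rose (Wt1, 0.97 ± 0.24, edgeR adjusted p = 0.0132) and 0 fell. Their summed level was 342 and 206 CPM in Sox7-null 1 and Sox7-null 2 and 223 CPM in the wild type, so the wild type lay between the Sox7-null libraries. The mesothelial gene Upk3b had 775 and 343 reads in the Sox7-null libraries against 479. Between those same libraries Krt19 was 18.4%, Synm 18.7%, Vim 21.9% and Krt7 126% higher in Sox7-null 1, where Krt7 rests on 64 and 29 reads. Krt8 differed by -1.28%, Krt18 by 1.05%, Des by 2.14% and Nes by -4.27%. Whether these differences are tied to the marker sum was not tested. Markers of surface and pharyngeal epithelium were low in all libraries, summing to 3.56 and 5.80 CPM in the Sox7-null libraries and 17.2 CPM in the wild type. Of 9 markers 6 were tested, 0 rose (also at an unadjusted edgeR p under 0.05) and 3 fell by edgeR (Epcam, Cldn6 and Esrp1). DESeq2 called Cldn6 and gave Epcam and Esrp1 no adjusted p. The epithelial adhesion gene Epcam had 4 and 11 reads in the Sox7-null libraries and 39 in the wild type. Foregut and liver bud markers totalled 17 and 33 reads in the Sox7-null libraries and 558 in the wild type. Of 6 tested among 9, 0 rose and 5 fell by edgeR (Foxa1, Hnf4a, Afp, Ttr and Alb). DESeq2 called Afp and Ttr and gave Foxa1, Hnf4a and Alb no adjusted p. Both sums rest on few reads in the Sox7-null libraries (48 and 80 for surface and pharyngeal epithelium) and on 1 wild-type library. Their relation to the keratin levels was not tested.

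Of the 10 myocardial markers 5 rose (Tnnt2, Myh6, Myh7, Actc1 and Ryr2) and 0 fell by edgeR (median 0.46; 4 rose and 0 fell by DESeq2, and 1 was lower at an unadjusted edgeR p under 0.05), beside the higher Des. Under the length-GC correction 3 of them rose (Tnnt2, Myh7 and Actc1). Smooth muscle markers summed to 4997 and 6560.4 CPM in the Sox7-null libraries and 4451 CPM in the wild type, with 2 of 4 higher (Tagln and Cnn1) and 0 lower. Acta2 alone held 3256 and 4545 CPM of these sums in the Sox7-null libraries and 3321 CPM in the wild type. Acta2 and Myh11 did not pass (edgeR adjusted p = 0.35 and 0.827). All 4 skeletal myoblast markers (Myf5, Myod1, Myog and Pax7) had 0 reads. Endothelial and endocardial markers, beside Vim, summed to 489 and 477 CPM in the Sox7-null libraries and 473 CPM in the wild type, with 2 of 8 higher (Pecam1 and Tie1) and 2 lower (Tek and Npr3), of which DESeq2 called Pecam1 and Tek; under the length-GC correction Emcn took the place of Tie1. Cushion mesenchyme markers summed to 1611 and 1239 CPM in the Sox7-null libraries and 882 CPM in the wild type, of which Vcan alone held 1508 and 1143 CPM in the Sox7-null libraries and 727 CPM in the wild type. Of the 6 cushion markers 1 rose (Vcan) and 2 fell (Twist1 and Sox9), and their median log2 fold change was -0.67. Of the 8 neural progenitor markers, set beside Nes, Sox1, Pax3, Dbx1 and Neurog2 had 0 reads, and of 3 tested Sox3 rose (1.79 ± 0.42, edgeR adjusted p = 0.0107, DESeq2 adjusted p = 0.0507). Trophoblast markers summed to 5.78 and 8.70 CPM in the Sox7-null libraries and 13.4 CPM in the wild type, with 1 of 7 tested and 0 called by edgeR (Gata3, adjusted p = 0.0552) or DESeq2, though Gata3 was lower under the length-GC correction (edgeR adjusted p = 0.0405). What part these cell types have in the values of the 8 genes was not tested.

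**Figure D5:**
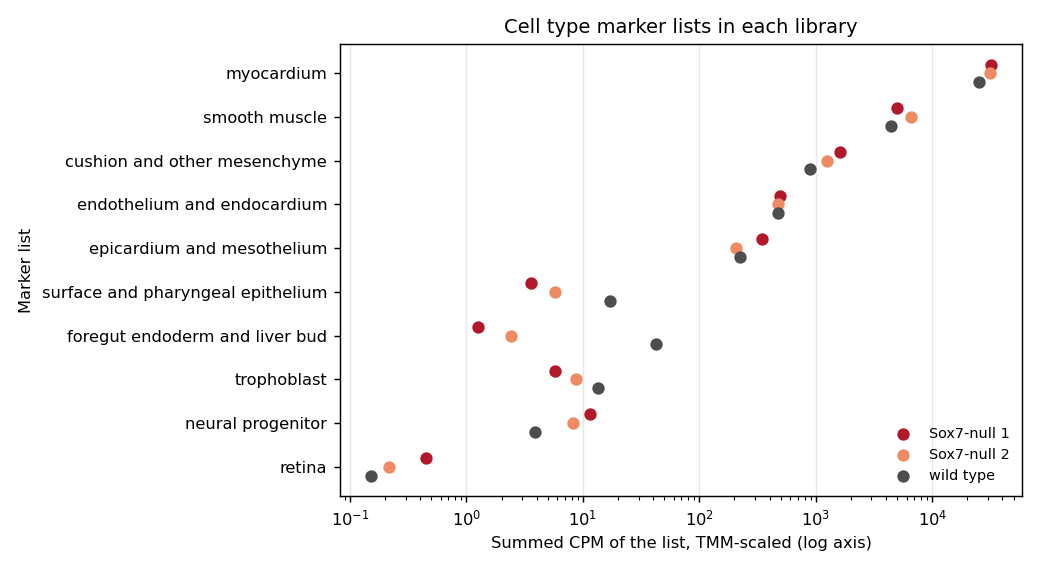
Summed level of 10 marker lists in CPM, TMM-scaled, on a log axis, with 1 point per library. Surface epithelium and foregut lists are lower in both Sox7-null libraries (3.56 and 5.80 CPM, and 1.26 and 2.39 CPM) than in the wild type (17.2 and 42.1 CPM), and the epicardial list has the wild type between the Sox7-null libraries.

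The genes whose levels followed that of Krt19 most closely were found by the distance between their 2 log2(CPM + 0.5) differences and those of Krt19, over 3 libraries and 10279 genes with a mean of at least 5 CPM. In order of distance they were Ddit4 (an inhibitor of mTORC1), Epm2a (the glycogen phosphatase laforin), Vldlr (a lipoprotein receptor), Slc2a3 (a glucose transporter) and Rgs16 (a regulator of G protein signalling). Ddit4 was nearest, at log2 differences of 3.27 and 2.76 for Sox7-null 1 and Sox7-null 2 over the wild type, beside 3.28 and 3.04 for Krt19. Slc2a3 was the most abundant of the 5, with 20041 and 14383 reads in the Sox7-null libraries and 2143 in the wild type. Rgs16 and Epm2a rest on 7 and 9 reads in the wild type, which is 0.528 and 0.678 CPM. Both reached the mean of 5 CPM only through the Sox7-null libraries. The 0.5 CPM added before taking log2 is close to these wild-type levels and narrows their differences. Their nearness to Krt19 therefore depends on that setting.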

How the data were processed

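Trizol was used for RNA and a kit that keeps strand for the libraries, per the labels' protocols. Each deposited file holds raw counts for 1 library, whole numbers by gene symbol. Its 5 closing summary lines were left out: reads in no gene (8.10%, 8.52% and 11.7% of Sox7-null 1, Sox7-null 2 and wild type), reads in several genes (2.27%, 2.29% and 1.97%), those not unique (given above) and the others at 0. The submitters' processing notes list 4 tools (CASAVA, TopHat2, HTSeq, and DESeq2 at version 1.10.1) and human builds, although the symbols are those of mouse, so no gene coordinates are drawn from the counts. The sources used here state neither annotation nor strand setting, and Krt8 has an annotated processed pseudogene, so its reads are uncertain where the copies match. Pseudogenes were looked for only under the members' own names, so copies of the 8 genes under other names were not examined.

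Counts were fitted with edgeR 4.0.16 in R 4.3.3 (TMM, filterByExpr with a minimum count of 10, glmQLFit and glmQLFTest, genotype as the term). The 13334 genes kept were adjusted together by the Benjamini-Hochberg method. The fit had 1 residual and 11.8 prior degrees of freedom, so the lone wild-type library is assumed to vary like the Sox7-null ones. An SE is the log2 fold change divided by the square root of F. Log2 values per library use a pseudocount of 0.5 CPM. DESeq2 1.42.0, another scaling, other filters and a length and GC correction (99.0% of tested genes had both) were alternatives. Exact intervals are Clopper-Pearson.

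The 8 members, the lists and the motifs were chosen with earlier results of these data known. Besides members and Sox7, genes are named as up to 4 per list by smallest p, those a list's description needs, up to 4 markers per list past the threshold or at 0, and the 5 nearest to Krt19. The fifth myocardial marker, the fifth foregut marker and Egln3 were named after their values were seen. Promoters of 7 of the 8 members matched by symbol. The value of 1 gene of the pathway lists is not reported here.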

Additional observations from a re-analysis of the deposited data

How the results depend on the processing

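edgeR called 6 members higher with DESeq2's size factors and with a minimum mean of 5 CPM (chosen after seeing the data; Krt7 was then left out), DESeq2 called 6, and edgeR called 3 under the length-GC correction. Without a filter on low counts edgeR, over 17242 genes and with 3.23 prior degrees of freedom, called 0 members, 0 list genes and 0 genes in either direction (smallest adjusted p 0.122), while at an unadjusted p under 0.05 it had 2147 genes higher and 1966 lower, 6 of them members. DESeq2 called 941 genes higher and 721 lower, against 1508 and 1366 with edgeR, and 0 other keratins. Over the pathway lists 12 genes rose and 1 fell with edgeR, 6 rose and 1 fell with DESeq2, and 7 rose and 2 fell under the length-GC correction. Krt7 changed sign to -0.11 under that correction. Leaving out a Sox7-null library leaves 1 against 1, a value with no test. Krt7 then ranged from -0.43 to 0.58, and the other 7 members kept their sign in every alternative run. The median of the other intermediate filaments was 0.15 without Sox7-null 1, that of the other keratins -0.58 and that of the plakins 0.45, and that of the costamere list was 0.83 without Sox7-null 2. Under the length-GC correction the cushion marker Prrx1 also fell. The Krt19 share of keratin reads ranged from 55.7% to 59.8%, that of Krt8 from 25.9% to 28.9%, that of Krt18 from 13.9% to 15.2% and that of Krt7 from 0.175% to 0.359%. Of the 5 genes nearest to Krt19, 3 were shared at a pseudocount of 1 CPM. The cause of these differences was not tested. No paired analysis was possible because the groups share no replicate numbers. With 1 wild-type library, no value has a replicate check on that side.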
